A study of Mus musculus with 6 samples.

Results

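The genes described here are 9 components of Sonic hedgehog signaling, namely Shh, Ptch1, Smo, Gli1, Gli2, Gli3, Gas1, Boc and Cdon, in retinal ganglion cells (RGCs) of the embryonic mouse. Every probe set that the array annotation assigns to 1 of these symbols alone was taken, which gave 22 of the 34945 probe sets that name 1 gene, and no probe set named one of the genes together with another. RGC populations of wild-type C57BL/6J embryos were compared at E16.5, which the labels shorten to day 16: ipsilateral RGCs, whose axons do not cross the midline, and contralateral RGCs, whose axons cross at the optic chiasm. Both took up a rhodamine dextran during 2 h from the severed optic tract, and both were collected by FACS, with dead cells gated out, after the retinas of 2 litters had been pooled by side. Each of 3 rounds of labeling and sorting gave 1 ipsilateral and 1 contralateral sample, so that 6 arrays were hybridized, and each sample is a pool of embryos. The rounds had been selected for high Zic2 in ipsilateral RGCs.

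Sonic hedgehog is a secreted ligand that binds Patched 1 (Ptch1) and so frees Smoothened (Smo), which acts through the Gli transcription factors. Gas1, Boc and Cdon are coreceptors that hold the ligand at the cell surface, and Ptch1 and Gli1 are themselves transcriptional targets of the pathway. In the mouse retina, RGCs make Shh, and dividing progenitor cells respond to it. Shh carried by crossing axons repels ipsilateral axons at the chiasm, and Boc is known as the coreceptor through which those axons respond.

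Values are log2 intensities that the authors made with the RMA method, and every difference is ipsilateral minus contralateral on this scale, so that a negative value stands for a lower level in ipsilateral RGCs. Probe sets were tested with limma over the 36029 probe sets whose mean log2 value was at least 4.74, the filter level, which all 22 passed. A call needed a change of 2-fold or more together with a p under 0.05 after Benjamini–Hochberg adjustment over all of these. The array medians were 5.81, 6.70 and 6.33 for ipsilateral and 5.80, 6.65 and 6.26 for contralateral RGCs in rounds 1 to 3, so levels moved with the round. Markers of RGCs were bright on every array, with a mean log2 level over 19 genes of 10.03 to 10.75 in ipsilateral and 10.53 to 11.09 in contralateral RGCs. Markers of other cells were also detected. The mean level of 17 microglia and macrophage genes was 7.92 to 8.72 in ipsilateral and 4.75 to 5.83 in contralateral RGCs, that of 17 retinal progenitor genes was 9.13 to 10.08 in ipsilateral and 8.18 to 8.22 in contralateral RGCs, and that of 20 proliferation genes was 8.07 to 9.51 in ipsilateral and 6.88 to 6.96 in contralateral RGCs. For these pooled cells, a change in the number of cells of a type and a change in RNA per cell cannot be told apart.

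Gas1 was higher in ipsilateral RGCs, and it was the only one of the 9 genes to pass the test. It passed in the fit that leaves the round out, and not with the round as a term. The genes of reception and transduction (Ptch1, Smo, Gli1, Gli2, Gli3 and Cdon) had positive differences from 0.60 to 1.49, Boc was at −0.02, and the ligand gene Shh had a negative difference of −0.98, each at the brightest probe set of the gene. Of the 22 probe sets, 1 was called higher and 0 lower by limma, against a background of 0.244% of all probe sets called higher and 0% called lower. At an unadjusted p under 0.05, 7 were higher by 2-fold or more (2.05% of all probe sets) and 0 were 2-fold lower (0.239%). The 7 include 1459211_at of Gli2, whose contralateral mean of 4.35 lies under the filter level. In all 3 rounds 12 were higher (16.7% of all probe sets) and 2 lower (19.7%). With the round as a term in the same fit, called the replicate block, 0 of the 22 were called in either direction, while 75 of all probe sets (0.208%) were called higher. The median difference over the 22 probe sets was 0.68, beside −0.02 for all probe sets tested. Probe sets of Gas1, Ptch1, Gli3 and Smo are in the study's own table of differing genes, a choice made on the same samples, so the direction of these is not independent evidence. The study thus called probe sets of Ptch1, Gli3 and Smo that the limma fit did not call. Its fold changes came from other software and are not the same as those of the deposited values. Ptch1 1428853_at, above 2-fold in the study, was 1.98-fold here, which misses the fold threshold whatever the test.

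**Figure D1:**
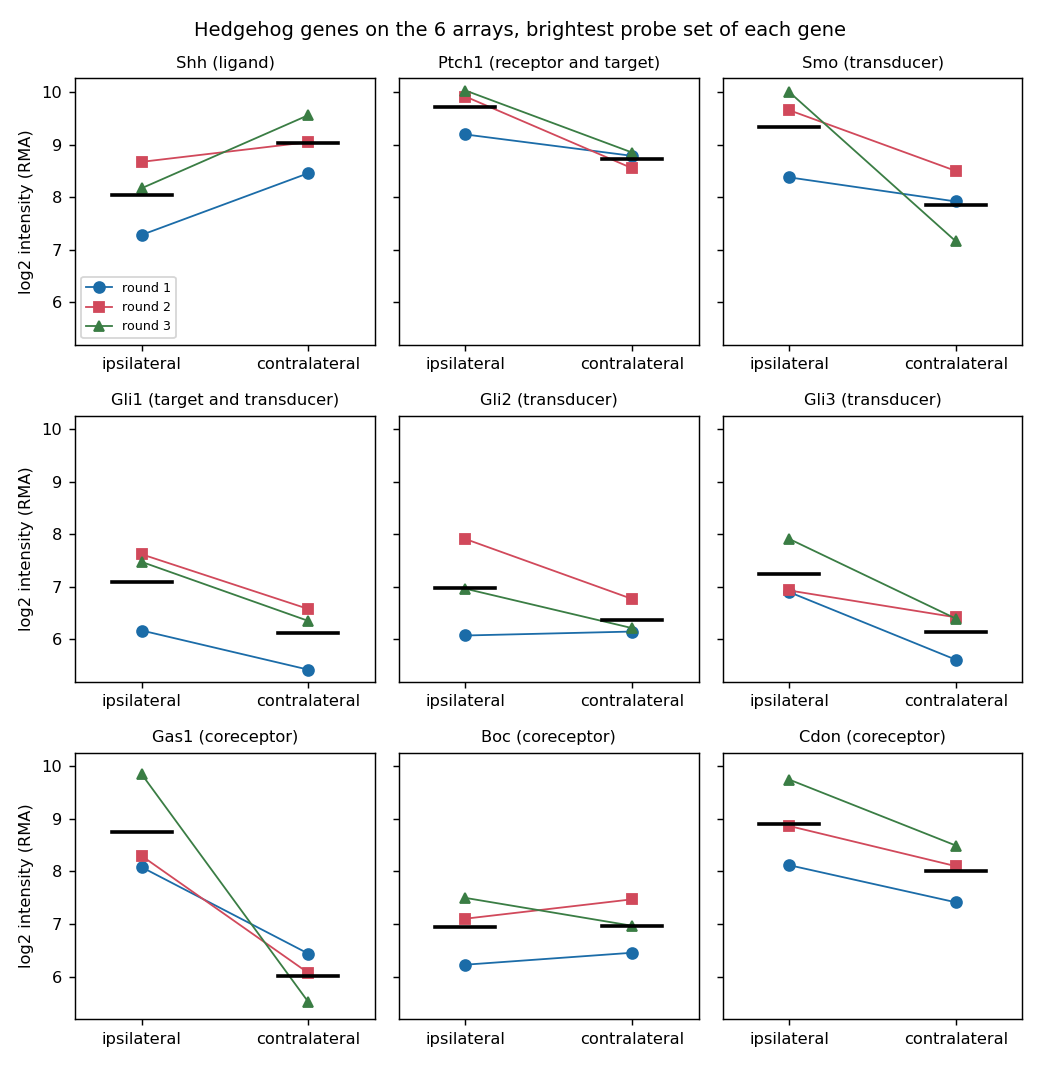
Log2 intensity (vertical axis) of the 9 genes at the brightest probe set of each in ipsilateral and contralateral RGCs. Symbols are single arrays, with the 2 arrays of a round connected, and black bars give the group mean (n = 3); Gas1, Ptch1 and Gli3 are the genes whose ipsilateral arrays all lie above all contralateral arrays, and Shh lies lower in the ipsilateral sample of each round.

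Shh, the ligand, was lower in the ipsilateral sample of every round at its brighter probe set (1436869_at), but the arrays of the groups overlapped and it did not pass the test. Its log2 levels were 7.28, 8.67 and 8.17 in ipsilateral RGCs of rounds 1 to 3, against 8.46, 9.05 and 9.56 in contralateral RGCs. The difference was −1.17, −0.38 and −1.39 in rounds 1 to 3. The mean difference of −0.98 had a standard error (SE) of 0.47 and a 95% interval from −1.98 to 0.02 (limma adjusted p = 1, unadjusted p = 0.0548). Adding the round as a block gave an unadjusted p of 0.0069 and an adjusted p of 0.199. A dimmer probe set of Shh (1427571_at) showed no such difference, with means of 5.72 ± 0.39 in ipsilateral and 5.71 ± 0.44 in contralateral RGCs (SD, n = 3 each) and a difference of 0.01. Its interval ran from −0.89 to 0.91.

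Among 8 other genes for ligands and for the release of ligand, 0 passed limma in either direction, where 0.358% of all genes were called higher and 0% lower. Of these 8, 0 had an unadjusted p under 0.05, and the median difference was −0.12. Disp2, a member of the Dispatched family, had the largest difference. Its log2 levels were 9.08, 9.16 and 9.14 in ipsilateral RGCs and 9.50, 10.04 and 10.12 in contralateral RGCs. All ipsilateral arrays lay below all contralateral arrays, as for 1.98% of all genes, and the difference was −0.76 (SE 0.39, limma adjusted p = 1). Scube2, which encodes a secreted protein that helps release the lipid-bound ligand, was at 0.38, Scube1 of the same family at −0.23, and Ihh, which encodes Indian hedgehog, at −0.21. Disp1, the Dispatched family member that releases Shh from the cells that make it, was at −0.08 and was higher in 2 of 3 rounds. The dimmer probe set of Disp1 (1434795_at) was at −0.48 and lower in all 3 rounds.

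Ptch1, the receptor gene that is also a target of the pathway, exceeded its contralateral level in every round at its brightest probe set (1428853_at). It had log2 levels of 9.19, 9.92 and 10.03 in ipsilateral RGCs, against 8.79, 8.55 and 8.85 in contralateral RGCs. The groups did not overlap, which held for 3.26% of all probe sets in this direction. The difference of 0.98 (SE 0.40, 95% interval 0.12 to 1.85) did not pass limma (adjusted p = 1, unadjusted p = 0.029). Adding the round as a block gave an adjusted p of 0.192. The other probe sets of Ptch1 had smaller differences, 0.30 at 1439663_at, which was higher in all 3 rounds, and 0.06 at 1450824_at, which was higher in 1 round.

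Smo encodes the membrane protein that passes the signal on when Ptch1 is bound. At its brightest probe set (1427048_at) the log2 levels were 8.38, 9.66 and 10.00 in ipsilateral RGCs and 7.92, 8.50 and 7.16 in contralateral RGCs. The ipsilateral sample was the higher one in every round, but ipsilateral round 1 lay below contralateral round 2. The mean difference was 1.49 (SE 0.51, limma adjusted p = 0.870), with 0.46, 1.16 and 2.84 in rounds 1 to 3, so that round 3 held most of it. A second probe set (1442215_at), the one in the study's table, differed by 1.74, 0.63 and 1.13 in the same rounds, with a mean of 1.17 (SE 0.49, limma adjusted p = 1), so the round with the largest difference was not the same at both. The third (1427049_s_at) was higher in 2 rounds and differed by 0.23.

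Of 5 other genes of the cell surface that bind the ligand or restrain the pathway, 4 passed the filter, 0 passed limma and 0 had an unadjusted p under 0.05. Among all genes, 0.358% were called higher and 0% lower. Hhip, which encodes a protein that binds and sequesters hedgehog ligands and is itself a target gene, had log2 levels of 6.08, 6.82 and 6.99 in ipsilateral RGCs and 5.68, 6.08 and 5.75 in contralateral RGCs. The ipsilateral arrays lay above all contralateral arrays, as for 3.84% of all genes, with the lowest ipsilateral and the highest contralateral value almost equal. The difference was 0.80 (SE 0.41, limma adjusted p = 1). The glypican gene Gpc6 was at 0.66, Gpr161, a ciliary receptor that holds the pathway down, at −0.25 and Gpc3 at 0.14. Lrp2 lay under the filter level and was not tested.

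**Figure D2:**
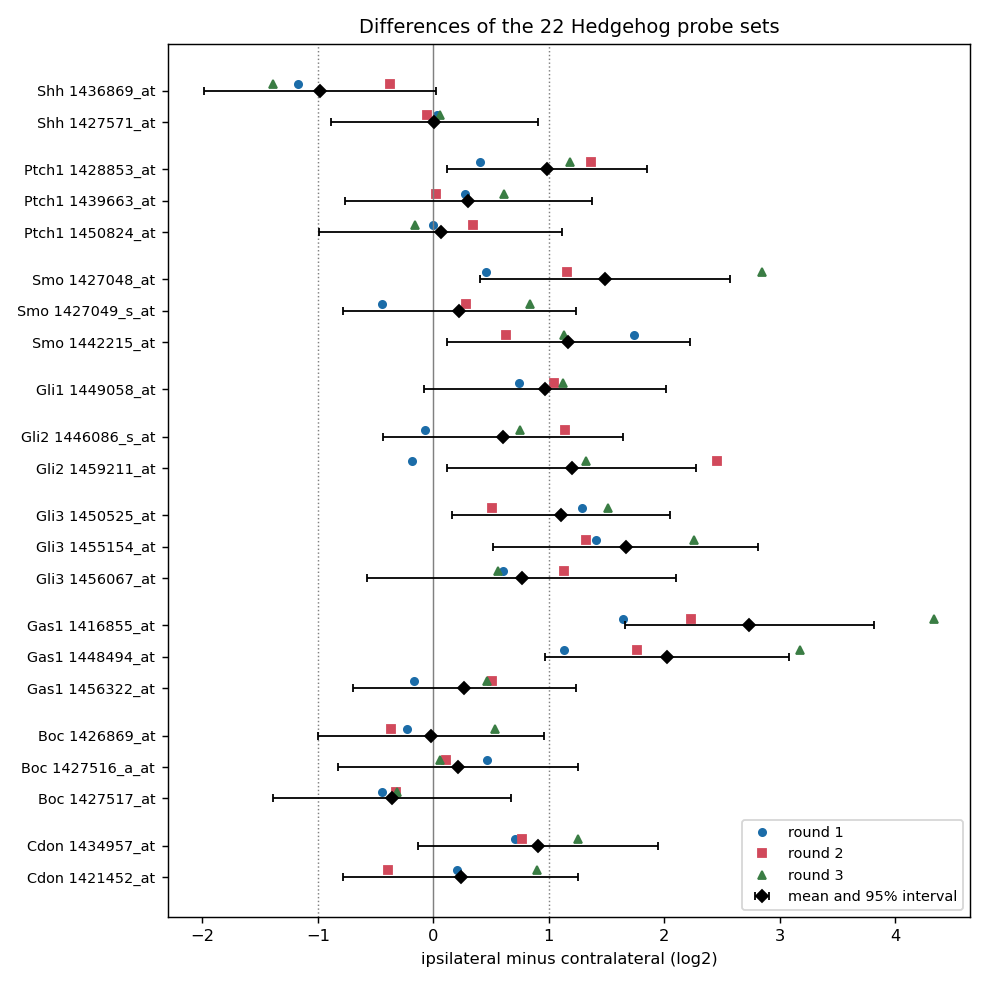
Ipsilateral minus contralateral log2 difference (horizontal axis) of the 22 probe sets, with the brightest of each gene on top. Small symbols are the 3 rounds and diamonds with bars are the mean with the 95% interval of the limma fit without the block; dotted lines mark a 2-fold change, and the intervals of 1416855_at and 1448494_at of Gas1 lie farthest from 0.

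All 6 probe sets of the Gli genes, which encode the zinc finger transcription factors at the end of the pathway, had positive differences. They ran from 0.60 to 1.67 with a median of 1.04, and 0 passed limma in either direction, while 3 had a 2-fold higher level with an unadjusted p under 0.05 (2.05% of all probe sets). These 3 were 1450525_at and 1455154_at of Gli3 and 1459211_at of Gli2. The contralateral mean of 1459211_at, 4.35, lies under the filter level, so it passed the filter through its ipsilateral arrays. Gli3, which acts largely as a repressor when no ligand is present, was higher in all 3 rounds at each of its 3 probe sets. At the brightest (1450525_at) its log2 levels were 6.90, 6.93 and 7.91 in ipsilateral RGCs, against 5.61, 6.42 and 6.40 in contralateral RGCs, with no overlap (3.26% of all probe sets in this direction). The difference there was 1.11 (SE 0.44, limma adjusted p = 1, and 0.171 once the block was added). At 1455154_at, the probe set in the study's table, the levels were 6.43, 7.81 and 8.30 in ipsilateral RGCs and 5.02, 6.49 and 6.04 in contralateral RGCs, which overlapped in 1 pair of arrays of different rounds. The difference at that probe set was 1.67 (SE 0.54, limma adjusted p = 0.701). The block brought the adjusted p to 0.0878, and the probe set passed without ipsilateral replicate 1 (difference 2.21, limma adjusted p = 0.0329). The third probe set of Gli3 (1456067_at) differed by 0.76.

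Gli1, an activator whose transcription is a common readout of the pathway, has 1 probe set. Its log2 levels were 6.17, 7.62 and 7.47 in ipsilateral RGCs, against 5.42, 6.58 and 6.35 in contralateral RGCs. Round 1 was low on both sides, so the groups overlapped, but the difference was much alike in the rounds at 0.75, 1.04 and 1.12. The mean difference was 0.97 (SE 0.49, limma adjusted p = 1, and 0.111 once the block was added, where the SE was 0.15). Gli2, the main activator of the pathway in the mouse, was higher in ipsilateral RGCs in rounds 2 and 3 but not in round 1. At its brighter probe set (1446086_s_at) the levels were 6.07, 7.91 and 6.96 in ipsilateral RGCs and 6.15, 6.77 and 6.21 in contralateral RGCs, and the difference was 0.60 (SE 0.48, limma adjusted p = 1). The other probe set of Gli2 (1459211_at) differed by 1.20, with −0.19, 2.46 and 1.32 in rounds 1 to 3, and its contralateral mean of 4.35 lies under the filter level.

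Of 22 genes that act between Smo and the Gli proteins, in the cytoplasm and the primary cilium, 0 passed limma in either direction and 0 had an unadjusted p under 0.05. Of these, 8 were higher and 14 lower, and the median difference was −0.06. In all 3 rounds 2 of the 22 were higher (17.6% of all genes) and 8 lower (20.2%). Over all genes, limma called 0.358% higher and 0% lower. Sufu, which holds Gli proteins in the cytoplasm, was at 0.23, and Kif7, a ciliary kinesin of the pathway, at 0.29. Evc2, a ciliary protein that acts next to Smo, had the largest difference, −0.82 (SE 0.42, limma adjusted p = 1), with log2 levels of 6.08, 6.67 and 6.99 in ipsilateral RGCs and 7.24, 7.85 and 7.11 in contralateral RGCs. The ipsilateral arrays of Evc2 all lay below the contralateral ones, as for 1.98% of all genes. Prkar1a, a regulatory subunit of protein kinase A, which primes Gli proteins for processing, was at −0.30.

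Among the 3 coreceptors Gas1 was called higher in ipsilateral RGCs in the fit without the block, while Cdon and Boc were not called. The differences at their brightest probe sets were 2.74 for Gas1, 0.91 for Cdon and −0.02 for Boc. At the brightest probe set of Gas1 (1416855_at), the log2 levels were 8.08, 8.30 and 9.85 in ipsilateral RGCs and 6.44, 6.07 and 5.51 in contralateral RGCs. Every ipsilateral array lay above every contralateral one, as for 3.26% of all probe sets, and the largest gap was in round 3. Gas1 was 6.67-fold higher, a log2 difference of 2.74 (SE 0.50, 95% interval 1.66 to 3.81, limma adjusted p = 0.0394), with 1.65, 2.23 and 4.34 in rounds 1 to 3. The call was lost with the replicate block (limma adjusted p = 0.147). It was lost as well when ipsilateral replicate 3 (0.209) or contralateral replicate 3 (0.143) was left out, and adjusted p also missed the threshold with no filter on low values (0.0537), a second quantile normalization (0.102) and arrays centred on their medians (0.0836).

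A second probe set of Gas1 (1448494_at) had log2 levels of 6.03, 6.82 and 8.05 in ipsilateral RGCs, against 4.90, 5.05 and 4.87 in contralateral RGCs. Here too the ipsilateral array of round 3 was highest and the groups did not overlap. Its difference was 2.03 (SE 0.49, limma adjusted p = 0.209), and it passed without ipsilateral replicate 1 (difference 2.50, limma adjusted p = 0.0081). The third probe set of Gas1 (1456322_at) did not show the change, with means of 6.94 ± 0.71 in ipsilateral and 6.67 ± 0.35 in contralateral RGCs (SD, n = 3 each), a difference of 0.27 and an interval from −0.70 to 1.23.

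Boc had log2 levels of 6.23, 7.10 and 7.50 in ipsilateral RGCs and 6.45, 7.47 and 6.97 in contralateral RGCs at its brightest probe set (1426869_at). The groups overlapped throughout, with the ipsilateral sample higher in round 3 alone. The difference was −0.02 (SE 0.45, limma adjusted p = 1). Its 95% interval in the fit without the block, from −1.0 to 0.95, does not exclude changes of almost 2-fold in either direction. With the block the SE was smaller, at 0.22 (limma adjusted p = 0.979). The other probe sets of Boc were at 0.21 (1427516_a_at, higher in all 3 rounds) and −0.36 (1427517_at, lower in all 3 rounds). Cdon, which encodes a protein of the same immunoglobulin and fibronectin repeat type as Boc, had log2 levels of 8.12, 8.87 and 9.75 in ipsilateral RGCs, against 7.41, 8.10 and 8.49 in contralateral RGCs at its brighter probe set (1434957_at). Its ipsilateral level was the higher one in all rounds, by 0.71, 0.76 and 1.26, although the groups overlapped. The mean difference was 0.91 (SE 0.48, limma adjusted p = 1, and 0.151 once the block was added), and at the other probe set of Cdon (1421452_at) it was 0.24.

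To set the genes against each other, the log2 ratio of 2 genes was taken on each array, which cancels any shift of a whole array, and was compared between the sides in 7 pairs. The ratio of Gas1 over Boc was 2.76 higher in ipsilateral than in contralateral RGCs, with 1.87, 2.60 and 3.81 in rounds 1 to 3. For Gas1 over Cdon the value was 1.83, and for Boc over Cdon it was −0.93. Ptch1 over Shh, a receptor gene over the ligand gene, was at 1.96, with 1.58, 1.74 and 2.57 in the rounds. With all probe sets of each gene averaged, the values were 1.73 for Gas1 over Boc, 1.1 for Gas1 over Cdon, −0.63 for Boc over Cdon and 0.94 for Ptch1 over Shh. Each of these 4 ratios separated the sides fully (exact permutation p = 0.10 over the 6 arrays, two-sided, the smallest that 3 against 3 allows, and 0.175 when adjusted over the 7 pairs). The share of all gene pairs that separate the sides was not computed. At the brightest probe sets these values follow from the differences given above for each gene and are not further evidence. The ratios of Ptch1 over Smo (−0.50), Gli3 over Gli1 (0.14) and Gli3 over Gli2 (0.50) overlapped between the sides (exact permutation p = 0.40, 0.80 and 0.40). With all probe sets averaged, Ptch1 over Smo was at −0.51 and did separate the sides fully (exact permutation p = 0.10). Gli3 over Gli1 (0.21) and Gli3 over Gli2 (0.28) overlapped on that measure too (exact permutation p = 0.40 and 0.60).

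The sequence before the start of Gas1, the called gene, and of Ptch1, the receptor gene that the pathway itself induces, is shown. It is the upstream part of the stretch that was searched for a Gli site. The sequences are those of RefSeq on build GRCm38.p6, 250 bases up to the start, 5′ to 3′ on the minus strand, at chr13:60177536-60177785 for Gas1 and chr13:63565736-63565985 for Ptch1, and capitals mark CG dinucleotides.
Gas1: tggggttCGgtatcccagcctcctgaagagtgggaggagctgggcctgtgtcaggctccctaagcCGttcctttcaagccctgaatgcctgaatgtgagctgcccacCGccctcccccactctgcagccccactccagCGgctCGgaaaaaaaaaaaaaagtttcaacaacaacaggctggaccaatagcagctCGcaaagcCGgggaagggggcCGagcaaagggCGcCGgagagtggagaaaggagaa
Ptch1: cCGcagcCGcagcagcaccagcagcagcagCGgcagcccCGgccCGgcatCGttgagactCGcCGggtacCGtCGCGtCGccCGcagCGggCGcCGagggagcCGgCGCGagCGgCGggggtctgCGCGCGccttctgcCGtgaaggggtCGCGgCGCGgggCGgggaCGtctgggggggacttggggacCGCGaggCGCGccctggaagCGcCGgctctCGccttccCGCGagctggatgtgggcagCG
The Gas1 window holds 10 CG dinucleotides and the Ptch1 window 41, more than 62.2% and 98.9% of all 32851 such windows. The start listed for Ptch1 is not the outermost one of the gene, and the same holds for Gli2 and Cdon. Of the 9 genes, 6 have a window in that table (Ptch1, Smo, Gli2, Gli3, Gas1 and Cdon). The Gli motif GACCACCCA, searched on both strands over 300 bases that reach 50 past the start, was in 0 of these 6 genes, and in 0.253% of all windows. Its first 8 letters, GACCACCC, were in 0 of the 6 and in 0.807% of all windows.

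Of 12 other genes known as Hedgehog targets that passed the filter, 10 had positive differences at the brightest probe set, 0 passed limma there in either direction, and 4 had a 2-fold higher level with an unadjusted p under 0.05, as were 2.47% of all genes, while 0 were 2-fold lower (0.156%). Limma called 0.358% of all genes higher and 0% lower. In all 3 rounds 8 of the 12 were higher (17.6% of all genes) and 2 lower (20.2%). The median difference was 0.63. Ccnd2, which encodes cyclin D2, had log2 levels of 8.39, 10.50 and 8.53 in ipsilateral RGCs, against 5.78, 7.74 and 5.39 in contralateral RGCs. Round 2 was high on both sides and the difference was alike in the rounds, at 2.62, 2.76 and 3.13. The mean difference of Ccnd2 was 2.84 (SE 0.65, limma adjusted p = 0.160), and it passed with the replicate block (adjusted p = 0.017), as did 0.319% of all genes. Of the 6 dimmer Ccnd2 probe sets, 1434745_at was called without the block (difference 3.06, SE 0.52, limma adjusted p = 0.0267) and not with it (0.101). Cdk6, a kinase partner of D cyclins, was at 2.03 (SE 0.41, limma adjusted p = 0.0759, and 0.0615 once the block was added), with 7.74, 7.85 and 8.21 in ipsilateral RGCs and 6.24, 5.38 and 6.09 in contralateral RGCs. Ccnd1, cyclin D1, was at 1.56 (adjusted p = 0.455) and Bcl2, an inhibitor of cell death, at 1.35 (adjusted p = 0.939), both from limma. Neither overlapped between the sides at its brightest probe set, as for 3.84% of all genes in this direction. These 4 genes are also in the study's table. Dimmer probe sets of Bcl2 all overlapped between the sides, with differences from −0.27 (1440770_at) to 0.93 (1457687_at). Among the other target genes, Sfrp1, a secreted Wnt antagonist, was at 0.74, Foxm1, a transcription factor of the cell cycle, at 0.39, Hes1 at 0.10 and Foxf1 at −0.36. Mycn was at −0.19 and lower in all 3 rounds. Dimmer probe sets of Foxm1 were at 1.18 (1448834_at), 0.58 (1448833_at) and −0.07 (1437138_at, under the filter level). Over the 4 lists together, 45 of 51 genes were measured above the filter level, 23 were higher and 22 lower, and the median was 0.01.

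**Figure D3:**
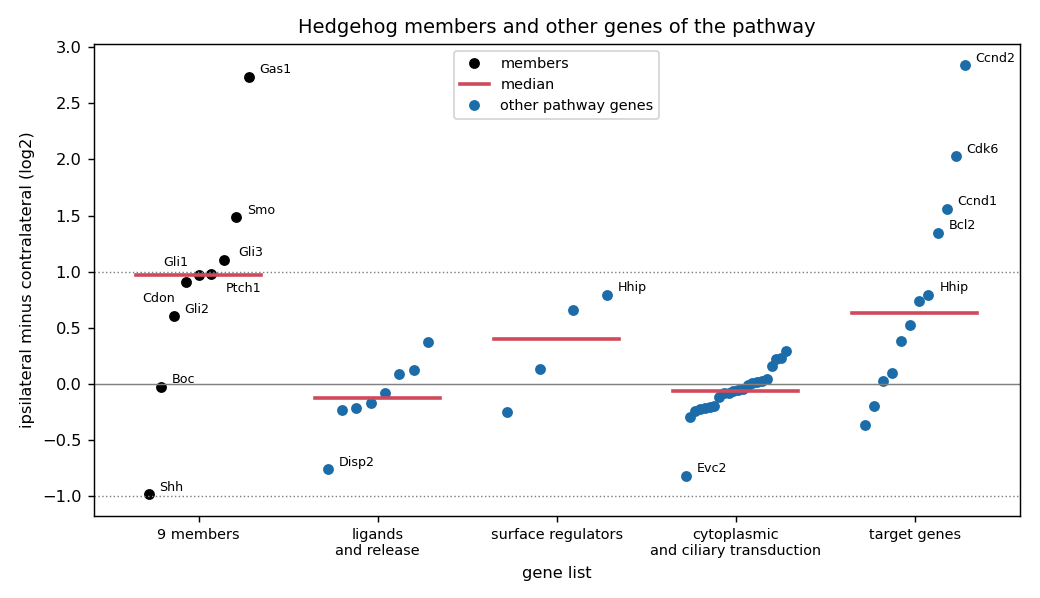
Ipsilateral minus contralateral log2 difference (vertical axis) of the 9 genes and of 4 lists of other Hedgehog pathway genes at the brightest probe set of each. Each point is 1 gene, red lines are medians (0.97 for the 9 genes and 0.63 for the target genes) and dotted lines mark a 2-fold change; genes from 0.75 in size are named, and Hhip is on 2 lists.

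Differences were smallest in round 1 and largest in round 3 both for the Hedgehog genes and for markers of dividing progenitors. The median difference of the 9 genes was 0.46, 1.04 and 1.18 in rounds 1 to 3, and 7 of the 9 had their largest difference in round 3. Retinal progenitor markers had medians of 0.86, 1.21 and 1.94 in the same rounds, where 3 of 17 rose by limma (0.358% of all genes). All 17 had positive mean differences and 14 were higher in every round (17.6% of all genes), but Pax6 (0.03), Six3 (0.02) and Hes1 (0.10) were near 0. Ccnd1 and Hes1 are also on the list of Hedgehog targets, and the medians of rounds 1 and 2 are the values of Ccnd1. Proliferation markers had 1.20, 1.39 and 2.31, where 1 of 20 rose and all 20 were higher. Microglia and macrophage markers had medians of 3.38, 2.97 and 1.13, the smallest in round 3, and 8 of 17 rose. With the replicate block 0 of the progenitor, 0 of the proliferation and 7 of the microglia markers were called higher, as were 0.319% of all genes. Markers of RGCs had medians of −0.45, −0.28 and −0.52, and all 19 were lower, as Shh was. Sox2, a progenitor gene that the study also describes in postmitotic ipsilateral RGCs, had log2 levels of 7.87 to 9.01 in ipsilateral and 4.88 to 6.65 in contralateral RGCs, while the defining microglia genes C1qb and Csf1r were at 9.88 to 10.92 in ipsilateral and 3.70 to 5.36 in contralateral RGCs. The part of progenitor, dividing or microglial cells in the differences of the Hedgehog genes was not tested.

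**Figure D4:**
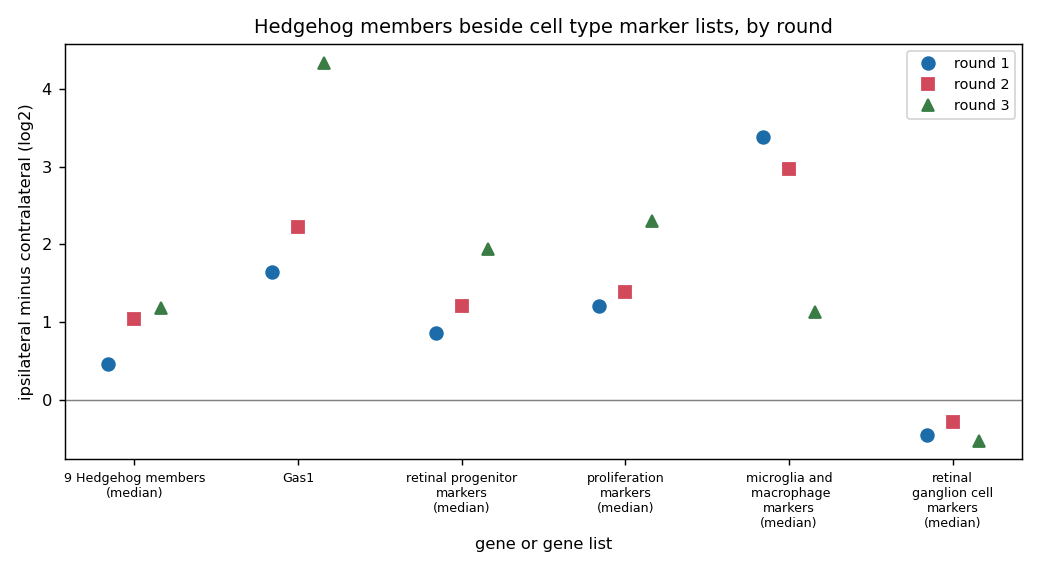
Ipsilateral minus contralateral log2 difference (vertical axis) by round for the 9 Hedgehog genes, Gas1 and 4 lists of cell type markers (horizontal axis). Each symbol is 1 round, a median over the list except for Gas1; Gas1, progenitor and proliferation markers are highest in round 3 (4.34, 1.94 and 2.31) and microglia markers lowest there (1.13).

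The genes other than these 9 whose pattern over the 6 arrays was most like that of a Hedgehog gene were looked for among 15337 genes, with each array centred on its median. The 6 points share 3 rounds and fall into 2 sides, so these values of Pearson's r across arrays are descriptions. Closest to Gas1 were Mki67, a marker of dividing cells (r = 0.999), Nusap1, a spindle protein of dividing cells (r = 0.996), and the Hedgehog target Hhip (r = 0.996), and 64 genes had r over 0.95. Closest to Ptch1 were Slco4a1 (r = 0.995), Cep55, which acts in the last step of cell division (r = 0.988), and Espl1, the protease that parts sister chromatids (r = 0.984). Closest to Gli3 were Dpy19l1 (r = 0.995), Hat1, a histone acetyltransferase (r = 0.992), and Tinf2, a telomere protein (r = 0.992). Among the 9 genes themselves, r was 0.925 between Gas1 and Smo, 0.910 between Gas1 and Ptch1, −0.807 between Gas1 and Shh and 0.196 between Gas1 and Boc.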

How the data were processed

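Sorted RGCs were profiled on 6 Affymetrix mouse genome arrays, from amplified cDNA. The authors deposited 1 log2 intensity for each probe set and array, which the submitters' notes trace to RMA in Affymetrix Expression Console 1.1; whether all arrays were normalized together is not stated. The thresholds, 2-fold and 0.05 after Benjamini–Hochberg adjustment, are those of the study's methods, which do not name the test. At these thresholds the study called more probe sets than the limma fit did, and called some lower, where limma called 0. Of 45101 probe sets, 64 controls were left out, and those with a mean log2 value at or above the 20th percentile (4.74) were kept. Symbols came from the array annotation, updated through RefSeq for 34741 probe sets, with 204 not found. Sides were contrasted through lmFit and eBayes of limma 3.58.1 (R 4.3.3) without a block, a fit that was tested on simulated data. The simulated arrays had no round effect, so that test does not bear on leaving the block out. For each gene the probe set with the highest mean was used where 1 was needed. Named genes were the 9 members, the called genes and up to 4 of each list with the largest difference, and the 3 genes nearest in pattern; others were chosen after their values were seen. The members and lists were chosen with earlier results of these data known. With so few arrays, their number limits the precision, and the median SE was 0.44 without and 0.17 with the block.

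The replicate numbers pair the samples, since both samples of a round went through one and the same preparation, per the methods. As a check, deviations from the group means correlated at 0.511, 0.541 and 0.612 for the same number and at −0.353 to −0.207 for different numbers. Array weights were estimated gene by gene. Some genes of the pathway lists were not analysed here.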

Additional observations from a re-analysis of the deposited data

How the results depend on the processing

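The count of called Hedgehog probe sets, 1 as reported, was 0 with the replicate block, with no filter, with a second quantile normalization and with arrays centred on their medians, and 3 with array weights, which ranged from 0.386 to 2.65 and were highest in round 3. It ranged from 0 to 3 with 1 array left out, with 0 without ipsilateral or contralateral replicate 3 and 3 without ipsilateral replicate 1. Beside Gas1, Smo passed with array weights (1427048_at, limma adjusted p = 0.0446). The count of other pathway genes, 0 as reported, was 1 with the replicate block, 2 with the filter at the 50th percentile, 3 with an intensity trend and robust estimation, 3 with array weights and 2 with the probe sets of each gene averaged, and ranged from 0 to 2 with 1 array left out; each of these calls was of Ccnd1, Ccnd2 or Cdk6. Over all probe sets the count of 88 was 179 with the trend, 264 with array weights and 53 to 220 with 1 array left out. At the brightest probe set of each gene, the replicate block changed no other call of a Hedgehog or other pathway gene; at dimmer ones, it ended the call of Ccnd2 1434745_at (limma adjusted p = 0.101) and added Cdk6 1435338_at (0.0424) and 1460291_at (0.0497). Differences near 0 changed sign. Shh 1427571_at was at −0.032 with quantile normalization and −0.035 with centring, Ptch1 1450824_at at −0.029 and Boc 1426869_at at 0.15 with array weights. With 1 array left out the differences ranged from −0.21 to 0.27 for Shh 1427571_at, −0.11 to 0.73 for Ptch1 1439663_at, −0.33 to 0.48 for Ptch1 1450824_at, −0.062 to 0.68 for Smo 1427049_s_at, −0.026 to 0.66 for Gas1 1456322_at, −0.30 to 0.34 for Boc 1426869_at, −0.23 to 0.54 for Boc 1427516_a_at, −0.73 to 0.050 for Boc 1427517_at and −0.10 to 0.58 for Cdon 1421452_at, and the within-array ratio of Gli3 over Gli1 from −0.15 to 0.56. Without a change of sign, Gli3 1456067_at ranged from 0.027 to 1.32, Gli2 1446086_s_at from 0.14 to 1.06 and the ratio of Ptch1 over Smo from −0.91 to −0.092. The causes were not tested. The other within-array ratios kept their sign under every alternative run, and with the replicate block their exact sign-flip test cannot go below p = 0.25.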
